A study of Homo sapiens with 6 samples.

Results

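The 10 genes described here encode the single-strand DNA binding complex RPA (RPA1, RPA2 and RPA3) and the checkpoint that reads it (ATR, ATRIP, TOPBP1, ETAA1, RAD17, CLSPN and CHEK1). They were taken by name, as DNA damage partners of Prp19, from the 58302 genes listed in every sample. The rule uses no measured value, although the list was drawn up with earlier results of these data known. SK-N-BE (2) is an established human neuroblastoma cell line. RNA was sequenced from 3 samples transfected with a control siRNA (NC) and 3 samples transfected with an siRNA against Prp19 (siPrp19). The labels give 72 h of transfection for all 6 samples, whereas the study's methods describe a shorter incubation. Both groups received the transfection reagent, and 1 siRNA stands for the knockdown. The study calls the samples biological replicates.

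RPA coats the single-stranded DNA that appears when a replication fork stalls or a break is resected. ATR, a kinase of the PI3K-related family, is brought to this DNA by its partner ATRIP, and is then switched on by TOPBP1 or by ETAA1. RAD17 loads the 9-1-1 clamp that recruits TOPBP1, and CLSPN (Claspin) holds CHEK1 (the kinase CHK1) so that ATR can phosphorylate it. Prp19 (gene PRPF19) is a ubiquitin ligase of the spliceosome that is also known to bind RPA and to ubiquitylate it, which helps ATR-ATRIP to gather at damaged DNA. These steps act on proteins, whereas the values below are transcript levels.

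The unit is FPKM, fragments scaled to exon length and between samples, so that comparisons between genes also depend on the exon length used. The samples held 19058782 to 21943936 reads on genes with NC and 22273026 to 24181789 with siPrp19, as recovered from the FPKM. PRPF19 itself was at 53.1, 53.1 and 64.9 FPKM in NC replicates 1, 2 and 3, and at 21.8, 28.5 and 33.6 FPKM in the same-numbered siPrp19 replicates. The groups did not overlap, and the siPrp19 mean was 49.0% of the NC mean (27.9 ± 5.91 against 57.0 ± 6.83, SD, n = 3 each, exact permutation p = 0.10, two-sided, the smallest that 3 against 3 allows). Its log2 change was −1.04 (SE 0.19), with an adjusted p of 0.9999 in limma without a replicate block and 0.19 with one. With limma voom on reads recovered from the FPKM and the block, the adjusted p was 1.29e-11. The SE there was 0.07, while the pairs differed by −1.28, −0.9 and −0.95, with an SD of 0.21. These fits draw the variance of a gene partly from other genes. Their p-values, above all those of voom with the block, therefore do not measure the spread of the pairs alone. Same-numbered samples of the 2 groups deviated together (correlations 0.38 to 0.64), so replicate numbers were read as pairs.

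No checkpoint gene passed the test without the block. Of the 10 genes, 9 reached 1 FPKM on average over the samples and were tested, while ATRIP was below that level. At an FDR under 0.05, limma called 0 of these 9, beside 0 of all 14462 genes tested (0%). It did not call PRPF19 either, so an absent call in this fit says little. At an unadjusted p under 0.05 it called 0 of the 9, beside 225 genes (1.56%). With the block the count at an FDR under 0.05 was again 0 of 9, beside 0 of 14462 (0%). At an unadjusted p under 0.05 with the block, TOPBP1 and CLSPN were lower and no member was higher, so that 2 of 9 passed, beside 15.7% of all genes (8.77% lower and 6.89% higher). With the block and genes of at least 5 FPKM only, 0 of 8 members were called at an FDR under 0.05, beside 1.57% of genes. In voom with the block, CLSPN alone was called lower, beside 7.01% of 14432 genes called (4.39% lower). Of the 9 estimates, 5 were below 0, near the 51% of all genes, and the median log2 change was −0.04. Because RNA was taken from whole cultures, fewer cells of a type and less RNA per cell cannot be told apart.

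**Figure D1:**
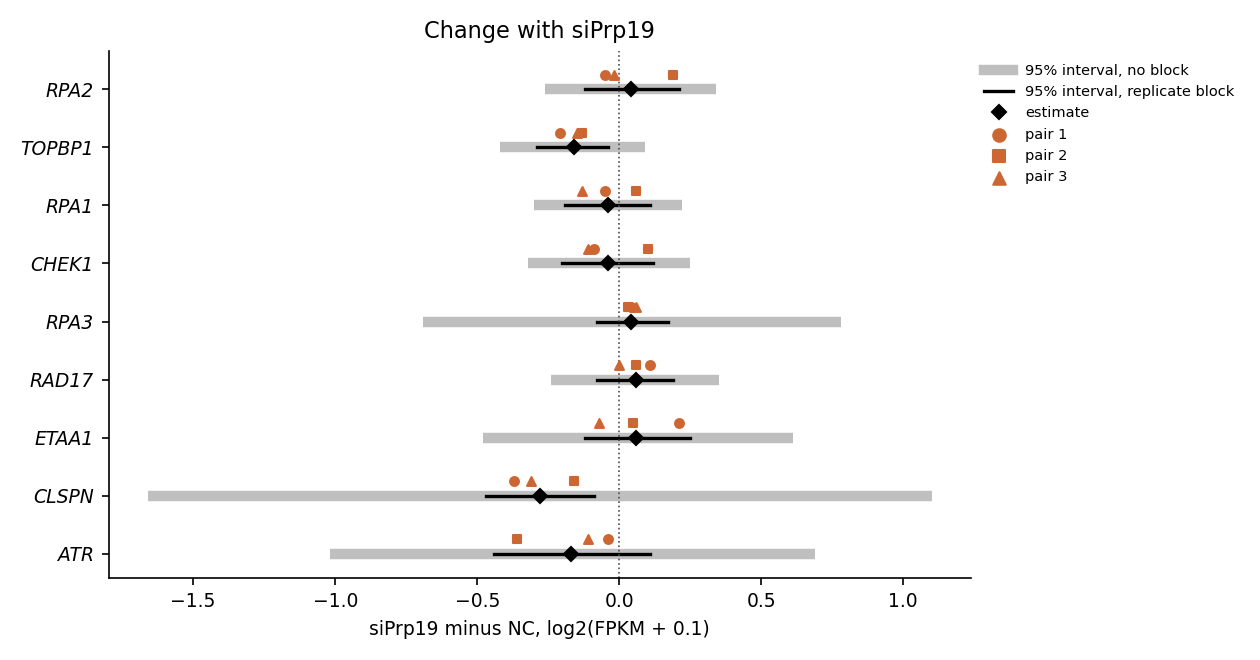
Log2 change of siPrp19 against NC on log2(FPKM + 0.1) for the 9 genes tested. Diamonds are estimates, wide grey bars the 95% intervals without a replicate block, narrow black bars those with it, and orange marks the 3 pairs. The interval of CLSPN is the widest without the block, and those of TOPBP1 and CLSPN with the block lie below 0.

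Sequences around the RefSeq start are shown for the 2 members whose blocked interval lay below 0, CLSPN and TOPBP1. Among the 8 members with such a sequence, they were the only ones with an E2F-type word, the kind of site read by the E2F factors that drive S-phase genes. The words searched, on both strands, were TTTCCCGC, TTTCGCGC, TTTGCCGC and TTTGGCGC, and they were chosen after the values were seen. Windows ran from 250 bases before the start to 50 after it in RefSeq on GRCh38.p14. Of all 35116 windows, 3.31% held such a word. The word CCAAT, the site of NF-Y, was searched too, also on both strands. It stood in windows of RPA1, ATRIP, ETAA1, RAD17, CLSPN and CHEK1, 6 of the 8, and not in those of TOPBP1 or ATR. Of all windows, 34.6% held it. Both shares count single windows, whereas a member counted if any of its windows held the word. RAD17 and CHEK1 have 3 windows each and ATRIP has 2, and RAD17 held CCAAT in 2 of its 3. Each sequence is written 5′ to 3′ on the strand of its gene, with the word, here in its reverse complement, in capitals.
CLSPN: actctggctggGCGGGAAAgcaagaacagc
TOPBP1: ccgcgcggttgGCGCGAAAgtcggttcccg
The CLSPN stretch lies at chr1:35769965-35769994 on the minus strand and the TOPBP1 stretch at chr3:133661930-133661959, also on the minus strand. In both, the word crosses the RefSeq start of the window, beginning 5 bases before it in CLSPN and 7 bases before it in TOPBP1. GENCODE, used for the gene positions given below, places the starts elsewhere, at 35769967 for CLSPN and 133662380 for TOPBP1. By those starts the CLSPN word lies before the gene and the TOPBP1 word inside it. A match describes letters and says nothing of binding.

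The 3 RPA subunits did not differ detectably between the groups. RPA1, the large subunit with the main DNA-binding domains (17:1829702-1900082, plus strand, GRCh38), was at 18.8, 17.0 and 18.8 FPKM with NC and at 18.2, 17.8 and 17.1 FPKM with siPrp19. The groups overlapped, the pairs differed by −0.05, 0.06 and −0.13 on the log2 scale, and the change was −0.04 (95% interval −0.30 to 0.22, with the block −0.19 to 0.11). RPA2, the subunit that is phosphorylated on damage (1:27891524-27914746, minus strand), was at 26.3, 27.4 and 29.3 FPKM with NC. With siPrp19 it was at 25.4, 31.3 and 29.0 FPKM, and only pair 2 was higher, by 0.19. Its change was 0.04 (−0.26 to 0.34, with the block −0.12 to 0.21).

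RPA3, the small subunit of the trimer (7:7636518-7718607, minus strand), was the steadiest member within pairs. It was at 10.8, 7.82 and 14.7 FPKM with NC and at 11.2, 7.98 and 15.3 FPKM with siPrp19. Each siPrp19 sample was slightly above its NC partner, at 103.0%, 102.0% and 104.2% of it. The SD of the pair differences was 0.02 on the log2 scale, while the SD within a group averaged 0.46, so its spread lay between replicate numbers. The change was 0.04 (−0.69 to 0.78 without the block, −0.08 to 0.17 with it). RPA binds DNA as a trimer with 1 copy of each subunit, yet the FPKM were unequal. Each FPKM is scaled to all annotated exon bases of its gene, 5492 for RPA1, 2019 for RPA2 and 3232 for RPA3. Ratios between the subunits therefore depend on these lengths as well as on transcript numbers. The ratio of RPA2 to RPA1 was 1.40, 1.61 and 1.56 with NC and 1.40, 1.76 and 1.69 with siPrp19. The ratio of RPA2 to RPA3 was 2.43, 3.51 and 1.99 with NC and 2.28, 3.92 and 1.89 with siPrp19.

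ATR was the lowest of the tested members (3:142449235-142578826, minus strand). It was at 2.52, 2.07 and 3.94 FPKM with NC and at 2.45, 1.59 and 3.65 FPKM with siPrp19. It was lower in 3 of 3 pairs, by 0.04 to 0.36, but the groups overlapped and the change was −0.17 (−1.02 to 0.69, with the block −0.44 to 0.11). Of its exon bases, 16.4% are shared with a processed pseudogene on the other strand, AC109992.1, which is listed at 0 in every sample.

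ATRIP (3:48446710-48467645, plus strand) was near the limit of detection. It was at 0.0671, 0.0665 and 0.0592 FPKM with NC and at 0.0902, 0.0845 and 0.177 FPKM with siPrp19, about 6 to 24 reads per sample. The siPrp19 values were all above the NC values (exact permutation p = 0.10, two-sided), but the gene was left out by the filter, and without a filter its log2 change was 0.38 (SE 0.29, adjusted p = 0.9989 in limma). On the same strand, 27.9% of its exon bases are shared with TREX1, an exonuclease gene listed at 0 in all 6 samples. How the counting treated shared reads is not given in the sources used here, so the ATRIP level, far below that of its partner kinase, is uncertain.

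Of the 2 ATR activators, TOPBP1 was the only member tested whose groups did not overlap. TOPBP1, a scaffold with BRCT domains (3:133598175-133662380, minus strand), was at 18.5, 19.6 and 19.3 FPKM with NC and at 16.0, 17.9 and 17.4 FPKM with siPrp19. Every siPrp19 value lay below every NC value, as it did for 2.84% of all genes tested, while no tested member was above throughout (2.77% of genes were). In TOPBP1 the siPrp19 mean was 89.3% of the NC mean. The means were 19.1 ± 0.555 and 17.1 ± 0.977 FPKM (SD, n = 3, exact permutation p = 0.10, two-sided). Its log2 change was −0.16 (SE 0.11, −0.42 to 0.09), and with the block the interval was −0.29 to −0.04. That change had an unadjusted p of 0.0184 and an adjusted p of 0.238 in limma with the block, and of 0.0691 in voom with the block. It rested on 2524 to 3148 reads per sample. ETAA1, the RPA-bound activator (2:67397319-67412089, plus strand), was at 7.50, 6.63 and 10.7 FPKM with NC. With siPrp19 it was at 8.66, 6.88 and 10.2 FPKM, higher in pairs 1 and 2 and lower in pair 3, with a change of 0.06 (−0.48 to 0.61, with the block −0.12 to 0.25).

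RAD17 (5:69369293-69414801, plus strand) was at 10.6, 11.4 and 9.98 FPKM with NC and at 11.4, 11.8 and 10.0 FPKM with siPrp19. The pairs differed by 0.11, 0.06 and 0.00, and the groups overlapped. The change was 0.06 (−0.24 to 0.35, with the block −0.08 to 0.19). TAF9 and AK6 overlap it on the other strand, TAF9 over 9.1% of its exon bases, and whether the counting used strand is not given in the sources used here.

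CLSPN varied most between replicates and was lower in every pair. CLSPN (1:35720218-35769967, minus strand) was at 4.04, 2.85 and 10.0 FPKM with NC and at 3.11, 2.54 and 8.07 FPKM with siPrp19. Replicate 3 stood far above the others in both groups, and the groups overlapped. Within pairs, siPrp19 was at 76.9%, 89.1% and 80.6% of NC. Without the block the log2 change was −0.28 (SE 0.58, −1.66 to 1.10, adjusted p = 0.9999 in limma). With the block its interval was −0.47 to −0.09 (SE 0.07), with an unadjusted p of 0.0129 and an adjusted p of 0.219. In voom with the block the change was −0.30 (SE 0.08) and the adjusted p was 0.027. That call did not hold without replicate 1 of both groups (adjusted p = 0.265) or without replicate 3 (0.133), and it held without replicate 2 (0.0374).

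CHEK1, the kinase at the end of the chain (11:125625136-125676255, plus strand), was at 17.2, 17.7 and 19.4 FPKM with NC and at 16.1, 18.9 and 17.9 FPKM with siPrp19. The groups overlapped, and pairs 1 and 3 were lower while pair 2 was higher. The change was −0.04 (−0.32 to 0.25, with the block −0.20 to 0.12). The ratio of CHEK1 to CLSPN was 4.25, 6.19 and 1.94 with NC and 5.17, 7.43 and 2.22 with siPrp19, higher in each pair. Across the 9 members tested, 3 were lower in 3 of 3 pairs (ATR, TOPBP1 and CLSPN), beside 21.3% of all genes. In the same count 2 were higher in 3 of 3 (RPA3 and RAD17), beside 19.2%, with RAD17 in pair 3 at only 100.2% of NC. ATRIP, left out by the filter, was also higher in each pair.

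**Figure D2:**
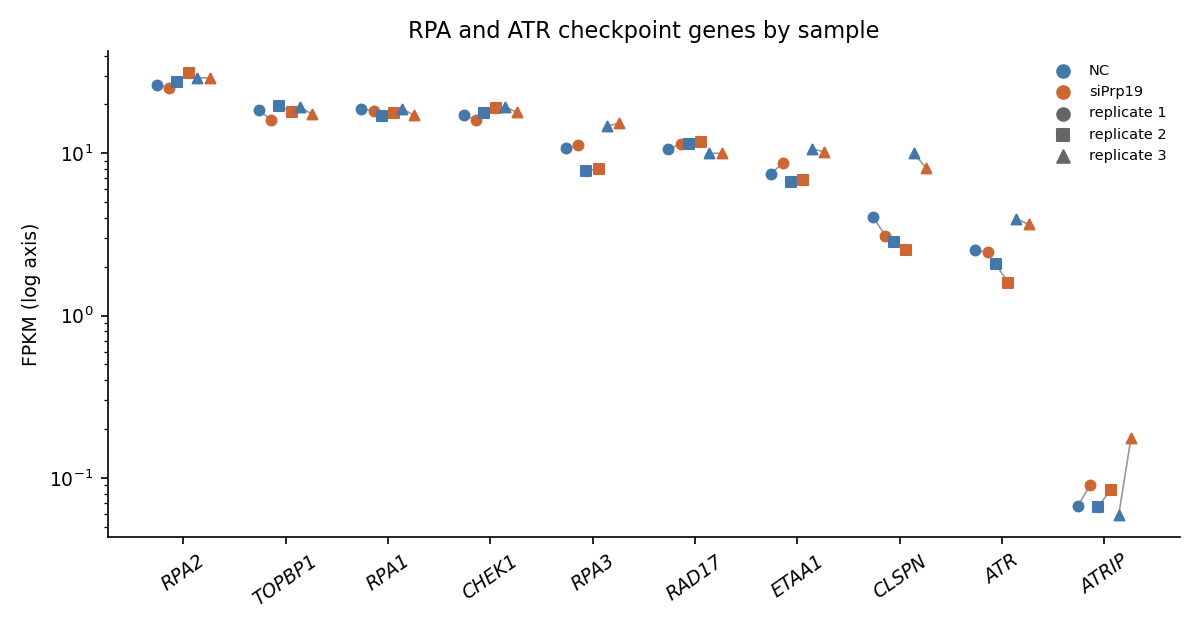
FPKM (log axis) of each member in every sample, NC in blue and siPrp19 in orange, with the mark's shape giving the replicate number and lines joining same-numbered samples. Replicate 3 of both groups stands above the others in CLSPN, ATR, RPA3 and ETAA1, and ATRIP lies under 0.2 FPKM throughout.

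The members covered a wide range of levels. In the NC means the order was RPA2 at 27.7, TOPBP1 at 19.1, RPA1 at 18.2, CHEK1 at 18.1, RPA3 at 11.1, RAD17 at 10.6, ETAA1 at 8.28, CLSPN at 5.63, ATR at 2.84 and ATRIP at 0.0642 FPKM. Neighbours in that order had separate NC ranges at 3 steps, from RPA2 to TOPBP1, from CHEK1 to RPA3 and from ATR to ATRIP. At the other steps the replicates of neighbouring genes overlapped. RPA2 stood above 89.7% of the genes tested and ATR above 28.1%.

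**Figure D3:**
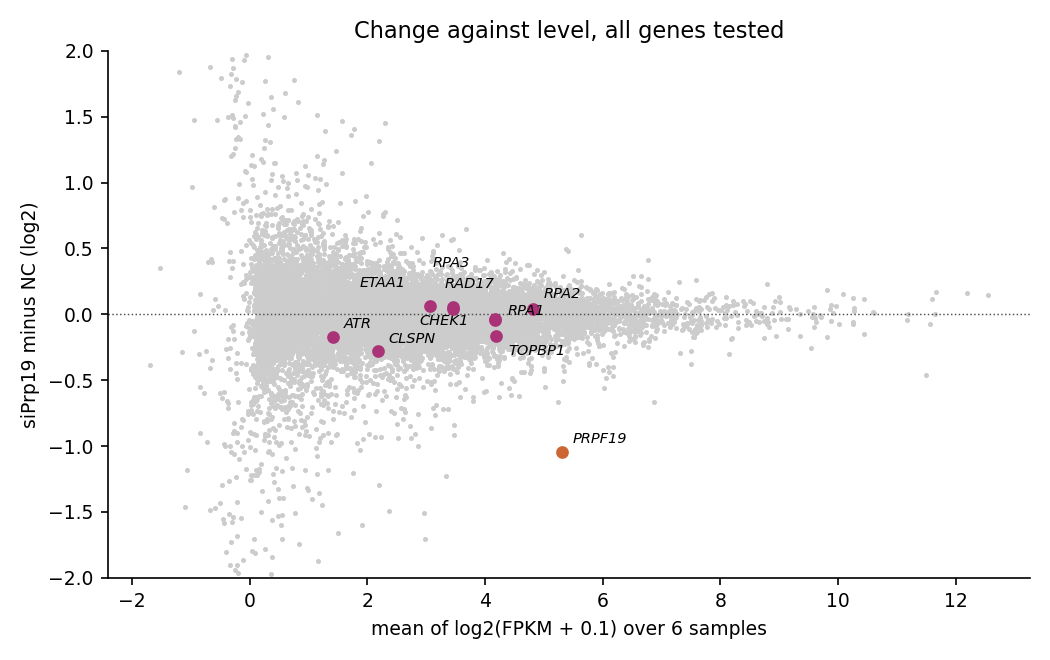
Log2 change of siPrp19 against NC over mean level for all genes tested, with members in purple and PRPF19 in orange. The 9 members lie between −0.28 and 0.06, and 57 genes with a change beyond 2 in size are not drawn.

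Replicate 3 differed from replicates 1 and 2 in the same way in both groups, and this set 3 members apart. On the log2 scale CLSPN was higher there by 1.53 with NC and 1.49 with siPrp19, which is 2.89 and 2.81 times the mean of the others. ATR was higher by 0.76 and 0.85, and RPA3 by 0.67 and 0.70. ETAA1 was higher by 0.60 and 0.40, while RPA1, RPA2, TOPBP1, RAD17 and CHEK1 moved by at most 0.22 in either direction. Thus 3 of 9 members were higher by at least 0.5 in both groups, beside 8.82% of all genes. Among 20 S-phase genes (replication and nucleotide synthesis), 19 were higher in replicate 3 of both groups, beside 6155 of all 14462 genes tested. By at least 0.5 it was 9 of the 20, beside the same 8.82%. Their summed level was 576.3, 500.7 and 756.8 FPKM with NC and 553.3, 498.8 and 720.0 FPKM with siPrp19. Of 9 adrenergic neuroblastoma markers, the median difference of replicate 3 was −0.54 with NC and −0.33 with siPrp19. In both groups 2 of the 9 were lower by at least 0.5, beside 1418 of all 14462 genes, and MYCN was higher (0.37 and 0.16). DBH, an enzyme of noradrenaline synthesis, differed most, at 44.2, 30.0 and 3.49 FPKM with NC and 41.9, 26.7 and 3.94 FPKM with siPrp19. The part of these differences in the members' values was not tested.

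**Figure D4:**
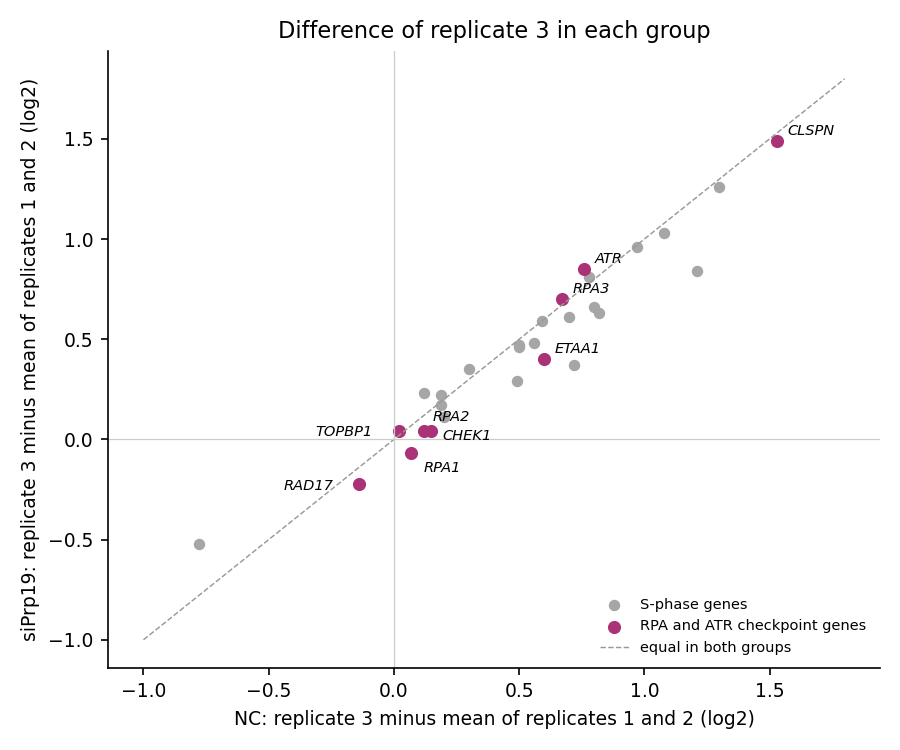
Replicate 3 minus the mean of replicates 1 and 2 on log2(FPKM + 0.1), NC on the horizontal and siPrp19 on the vertical axis, for the members (purple) and 20 S-phase genes (grey). Points lie along the dashed line of equal difference, with CLSPN at 1.53 and 1.49 and RAD17 at −0.14 and −0.22.

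All 9 adrenergic neuroblastoma markers were expressed, their summed level being 2077.4 to 2229.7 FPKM with NC and 2003.9 to 2533.1 FPKM with siPrp19. MYCN was the largest part of that sum, at 849.5 to 1166.9 FPKM with NC and 801.5 to 1214.7 FPKM with siPrp19. The other adrenergic markers were lower in replicate 3 of both groups, which the sum partly hides. Of 9 mesenchymal markers 7 passed the filter, and COL1A2 and PRRX1 stayed under 1 FPKM. Their summed level was 318.5 to 416.3 FPKM with NC and 319.0 to 388.7 FPKM with siPrp19. Of the 7, 5 were lower with siPrp19, beside 51% of all genes, with a median log2 change of −0.19. At an FDR under 0.05 limma with or without the block called 0 of them. At an unadjusted p under 0.05 it called 0 without the block and 4 lower with it, beside 8.77% of all genes lower. With the block on genes of at least 5 FPKM, 1 passed an FDR under 0.05, beside 1.57% of genes. Voom with the block, the fit that called CLSPN, called 4 of the 7 lower, beside 4.39% of all genes. They were FN1 (−0.35, adjusted p = 3.17e-05), FOSL1 (−0.67, 0.000246), SNAI2 (−0.31, 0.00285) and CD44 (−0.20, 0.0403). The pairs of FOSL1 differed by −1.15, −0.52 and −0.45, against an SE of 0.11 in that fit. The others of the 7, COL1A1 (−0.09, adjusted p = 0.368), VIM (0.02, 0.828) and THY1 (0.08, 0.499), were not called in voom with the block. VIM, at 181.2 to 229.6 FPKM, was the largest part of the summed mesenchymal level. The part of these markers in the members' values was not tested. The blood cell markers PTPRC, CD14 and CD68 were at most 1.30 FPKM in any sample. HBB, a haemoglobin chain, was at 15.4, 2.94 and 1.89 FPKM with NC and at 3.10, 1.51 and 0 FPKM with siPrp19, lower in each pair. It too was called lower in voom with the block (−2.19, adjusted p = 5.45e-05), and not in limma with the block (adjusted p = 0.218). Its pairs differed by −2.28, −0.92 and −4.31, against an SE of 0.32 in voom with the block.

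Other genes of the ATR pathway were read from the same fit. Of 42 listed genes 40 were tested, 26 lower and 14 higher, beside 51% of all genes lower, with a median log2 change of −0.03 and a range of −0.22 to 0.22. At an FDR under 0.05, 0 of the 40 were called in limma with or without the block, or in voom with the block, which called 7.01% of all genes. At an unadjusted p under 0.05, 0 were called in limma without the block, and 4 lower and 2 higher with it, beside 8.77% and 6.89% of all genes. RAD1, a subunit of the 9-1-1 clamp, was at 4.51, 4.65 and 5.12 FPKM with NC and at 3.69, 4.22 and 4.34 FPKM with siPrp19, without overlap (log2 change −0.22, adjusted p = 0.256 in limma with the block). SMARCAL1, an RPA-bound enzyme that remodels forks, was higher in each pair, at 7.50, 7.39 and 6.54 FPKM with NC and 8.87, 9.02 and 7.26 FPKM with siPrp19 (0.22, adjusted p = 0.219 in limma with the block). By the same rule, the largest change with 1 sign in every pair was −0.20 for DBF4 among targets and brakes of CHK1 and 0.16 for NABP2 among RPA-linked factors. It was −0.12 for TTI1 among PIKK kinases and chaperones, and −0.15 for MRE11 in the double-strand break arm. In the Prp19 core complex, CDC5L, PLRG1 and BCAS2 changed by −0.08, 0.05 and −0.04, next to −1.04 for PRPF19.

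Among the 20 S-phase genes, 12 were lower and 8 higher with siPrp19, with a median of −0.05. TYMS, thymidylate synthase, was at 11.0, 10.1 and 11.4 FPKM with NC and at 6.90, 6.78 and 8.01 FPKM with siPrp19, without overlap. Its log2 change was −0.58, with an adjusted p of 0.9999 in limma, 0.19 with the block, and 0.000108 in voom with the block. The latter fit also called MCM4 (−0.21, adjusted p = 0.0122), so 2 of the 20 were called, beside 7.01% of all genes. Of 15 damage-induced transcripts tested, 7 were lower and 8 higher, with a median of 0.03. CDKN1A, the cell cycle inhibitor p21, was at 5.89, 12.9 and 5.57 FPKM with NC and at 3.43, 8.18 and 4.65 FPKM with siPrp19, lower in each pair (−0.56). Voom with the block called 3 of the 15, beside 7.01% of all genes. In it CDKN1A (adjusted p = 0.000493) and MDM2 (0.00105) were lower and BBC3 (0.0226) was higher. In limma with or without the block 0 of the 15 were called.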

How the data were processed

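Each sample has its own deposited table, in which the authors give FPKM of 58302 Ensembl genes. HISAT2 2.0.5, featureCounts 1.5.0-p3 and the build hg38 are named in the submitters' processing notes, and the authors used DESeq2 for their own test. Whether counting used strand is not given in the sources used here. Gene symbols and exon lengths came from GENCODE release 29, in which 58039 identifiers were found. FPKM times exon length was a whole number of reads (within 0.05 read) in all samples for 97.5% of these genes, and for 96.1% of those not at 0 throughout. Reads of ATRIP, TOPBP1 and ETAA1 are approximate, since their values gave no whole reads.

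Median-of-ratios factors were equal in all samples, so the authors' values were already on a common scale by that measure. Values were scaled by them and set to log2(FPKM + 0.1), so changes of low genes are understated. Genes that averaged at least 1 FPKM were fitted in limma 3.58.1 (R 4.3.3, lmFit, eBayes with trend), without a block, and p-values were adjusted by Benjamini-Hochberg over all 14462 genes. Adjusted p-values of single genes come from this fit where the text names no block, from the same fit with the replicate number as a block, or from voom with the block over 14432 genes, as named beside each. Exact permutation tests (scipy 1.17.1) were two-sided. Replicate numbers came from the labels. Deviations from group means correlated at 0.38, 0.57 and 0.64 in the 3 pairs, each over 0.1. On component 1 (49.9% of the variance) replicate 3 lay at the high end (0.54 with NC, 0.55 with siPrp19). Replicate 2 lay at the low end (−0.45 and −0.4), with replicate 1 between them (−0.16 and −0.09). Samples held 19058782 to 24181789 reads on genes. Members tested had 272 to 3148 reads in a sample, and their log2 SD within a group averaged 0.06 to 0.89. The fits were tested on simulated data.

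The members and gene lists were chosen with earlier results of these data known. From each further list, the gene named has the largest change among those with 1 sign in every pair, and the other genes of those lists named in the text were chosen after their values were seen. Alternatives are listed with their effect in the closing section. Sequences of proteins, and of the siRNA, were not used here.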

Additional observations from a re-analysis of the deposited data

How the results depend on the processing

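There were 21 alternatives: a pseudocount of 1, no filter, a mean of at least 5 FPKM, TPM, quantile normalization, a replicate block, that block on genes averaging at least 5 FPKM, voom on recovered reads (blocked or not), a robust eBayes that used no trend, each sample left out, both groups without replicate 3 with and without the block, and, chosen after the data were seen, voom with the block without each replicate number of both groups. TOPBP1 stayed lower (−0.20 to −0.12) and RAD17 higher (0.01 to 0.13) in all 21.

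Genes called at an FDR under 0.05 went from 0 to 1 without trend and robust, to 124 with the block at 5 FPKM or more, to 1012 in voom with the block, and to 272, 698 and 1297 in the latter without replicate 1, 2 or 3. The replicate block alone called 0. Members called went from 0 to 1 in voom with the block and 1 without replicate 2 there. The count of lower members was 3 without replicate 3 of both groups, with or without the block or in voom, and 2 to 7 with each sample left out, 2 being without NC replicate 3. PRPF19 passed the threshold at −1.04 with the block at 5 FPKM or more and in voom with the block, and at −0.92, −1.11 and −1.09 in voom without replicate 1, 2 or 3. With each sample left out it ranged from −1.18 to −0.87.

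The sign turned for 7 members, none past the threshold there. With each sample left out, ATR ranged from −0.45 to 0.12, CHEK1 from −0.09 to 0.03, CLSPN from −0.77 to 0.24, ETAA1 from −0.08 to 0.27 and RPA3 from −0.19 to 0.28. Without NC replicate 3, ATR was 0.09, CLSPN 0.24 and CHEK1 0.02. Without siPrp19 replicate 2, ATR was 0.12, CLSPN 0.04 and RPA2 −0.03, and without siPrp19 replicate 1 CHEK1 was 0.03. Without NC replicate 2, RPA3 was −0.18 and ETAA1 −0.08, and without siPrp19 replicate 3 they were −0.19 and −0.07. Without replicate 3 of both groups, with the block, without it and in voom, CHEK1 was 0.00 and RPA1 0.01. In voom with the block, ETAA1 was −0.01 without replicate 1 and RPA2 −0.04 without replicate 2. Leaving out 1 sample breaks a pair, so replicate differences then enter the change by construction, and the cause of the other shifts was not tested.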

Other observations

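Over the 6 samples, the genes whose level was most like that of CHEK1 were DPH7, an enzyme of diphthamide synthesis (r = 0.997, 6.32 to 7.98 FPKM), AC114491.1 (0.993, 0.358 to 1.85 FPKM) and POPDC3 (0.989, 9.27 to 14.4 FPKM). For RPA1 they were IGHV3-47 (r = 0.978), MIR7976 (0.971) and AL442663.4 (0.967), all at most 5.56 FPKM. These are Pearson correlations of log2(FPKM + 0.1) over samples that share their libraries, chosen as the highest of all genes tested, and are given as a description.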
